A study of Mus musculus with 12 samples.

Results

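The genes described here are the enzymes that make L-serine and the carriers that move it across membranes, 10 genes chosen by name: Phgdh, Psat1 and Psph, the enzymes of the phosphorylated pathway; Slc1a4, Slc1a5, Slc38a2, Slc38a3, Slc38a4 and Sfxn1, the carriers; and Srr, which turns L-serine into D-serine. The arrays held 16 probes whose RefSeq accession belonged to these genes, of 39429 probes in all (20283 genes by symbol), and 13 of the 16 were well above background on all 12 arrays and were tested together with the other probes that met this filter, 20403 in total. Every one of the 10 genes had at least 1 tested probe. Liver RNA was taken from male C57BL/6 mice at 30 weeks of age fed a chow with casein, 6 Floxed and 6 LKO, and each mouse was measured on its own single-color Agilent array. Floxed mice were littermates that carried Phgdh flox/flox, in which the targeted exons are flanked by loxP sites but present. LKO mice were Alb +/Cre; Phgdh flox/flox, so that both groups carried the flox alleles and only LKO mice carried Cre. The albumin promoter restricts Cre to hepatocytes, where it removes the fourth and the fifth exons of Phgdh, and the other cells of the liver keep an intact gene. As bulk liver RNA was measured, fewer cells of a type and less RNA per cell cannot be told apart.

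In the phosphorylated pathway Phgdh oxidizes the glycolytic intermediate 3-phosphoglycerate, Psat1 transfers an amino group from glutamate to the product, and Psph removes the phosphate to release L-serine. Serine can also enter a cell from the blood through sodium-coupled carriers for small neutral amino acids, and Sfxn1 carries it into mitochondria, where it feeds one-carbon metabolism. The liver takes up and breaks down large amounts of amino acids, and in many cell types the transcription of serine synthesis genes and of some of these carriers is raised by the factor Atf4 when amino acids are scarce.

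The values below are log2 intensities of the processed spot signal after quantile normalization over the 12 arrays. A difference is always the LKO mean minus the Floxed mean on this log2 scale, with its standard error and p from limma, and a probe whose unadjusted p was below 0.05 is named as called, which is the threshold in the study's array methods. Levels of different probes were not set against each other, because the brightness of a probe also depends on its sequence. The arrays lay on 3 slides. Slide 1 held Floxed 1 to 4, slide 2 held Floxed 5 and 6 together with LKO 1 and 2, and slide 3 held LKO 3 to 6, so slide 2 was the only slide with both genotypes.

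Over all probes tested, 8.54% were called between LKO and Floxed livers, 4.47% higher and 4.07% lower in LKO mice, and none passed after Benjamini-Hochberg adjustment (limma, smallest adjusted p 0.135). The calls were 913 higher and 830 lower after quantile normalization, and 1270 higher and 431 lower when arrays were instead scaled to their 75th percentile. Between 21614 and 24252 probes per array were well above background. All 8 hepatocyte markers examined, all 7 for Kupffer cells, all 6 for sinusoidal endothelium and all 7 for stellate cells were well above background on every array. Their summed linear intensities overlapped between the genotypes, for hepatocytes at 1030180 to 1083690 in Floxed and 1037730 to 1084750 in LKO mice. The brightest markers weigh most in such a sum. The mean deviation of the hepatocyte markers was 0.047 in Floxed and -0.047 in LKO mice, and 0 of them were called. Single mice ran from -0.068 to 0.106 in Floxed and from -0.095 to 0.0050 in LKO mice. Of 5 pancreas acinar markers, Cpa1, Pnlip, Prss2 and Cela2a were on no array well above background, and the same held for Umod and Slc12a1 of the kidney and Lep of adipocytes.

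Of the 13 tested probes of serine synthesis enzymes and carriers, 2 were called: a Phgdh probe, lower in LKO mice, and a Sfxn1 probe, higher in LKO mice. That is 15.4% of the probes against 8.54% over all probes tested, and 1 call in each direction against 4.47% higher and 4.07% lower. The median difference was -0.018 over the 13 probes and -0.0084 over all probes tested. For each of the 16 probes, tested or not, the ranges of the 6 Floxed and the 6 LKO mice overlapped. Over all 20403 probes tested, the ranges failed to overlap for only 69, so overlap was the rule and not a trait of these genes.

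**Figure D1:**
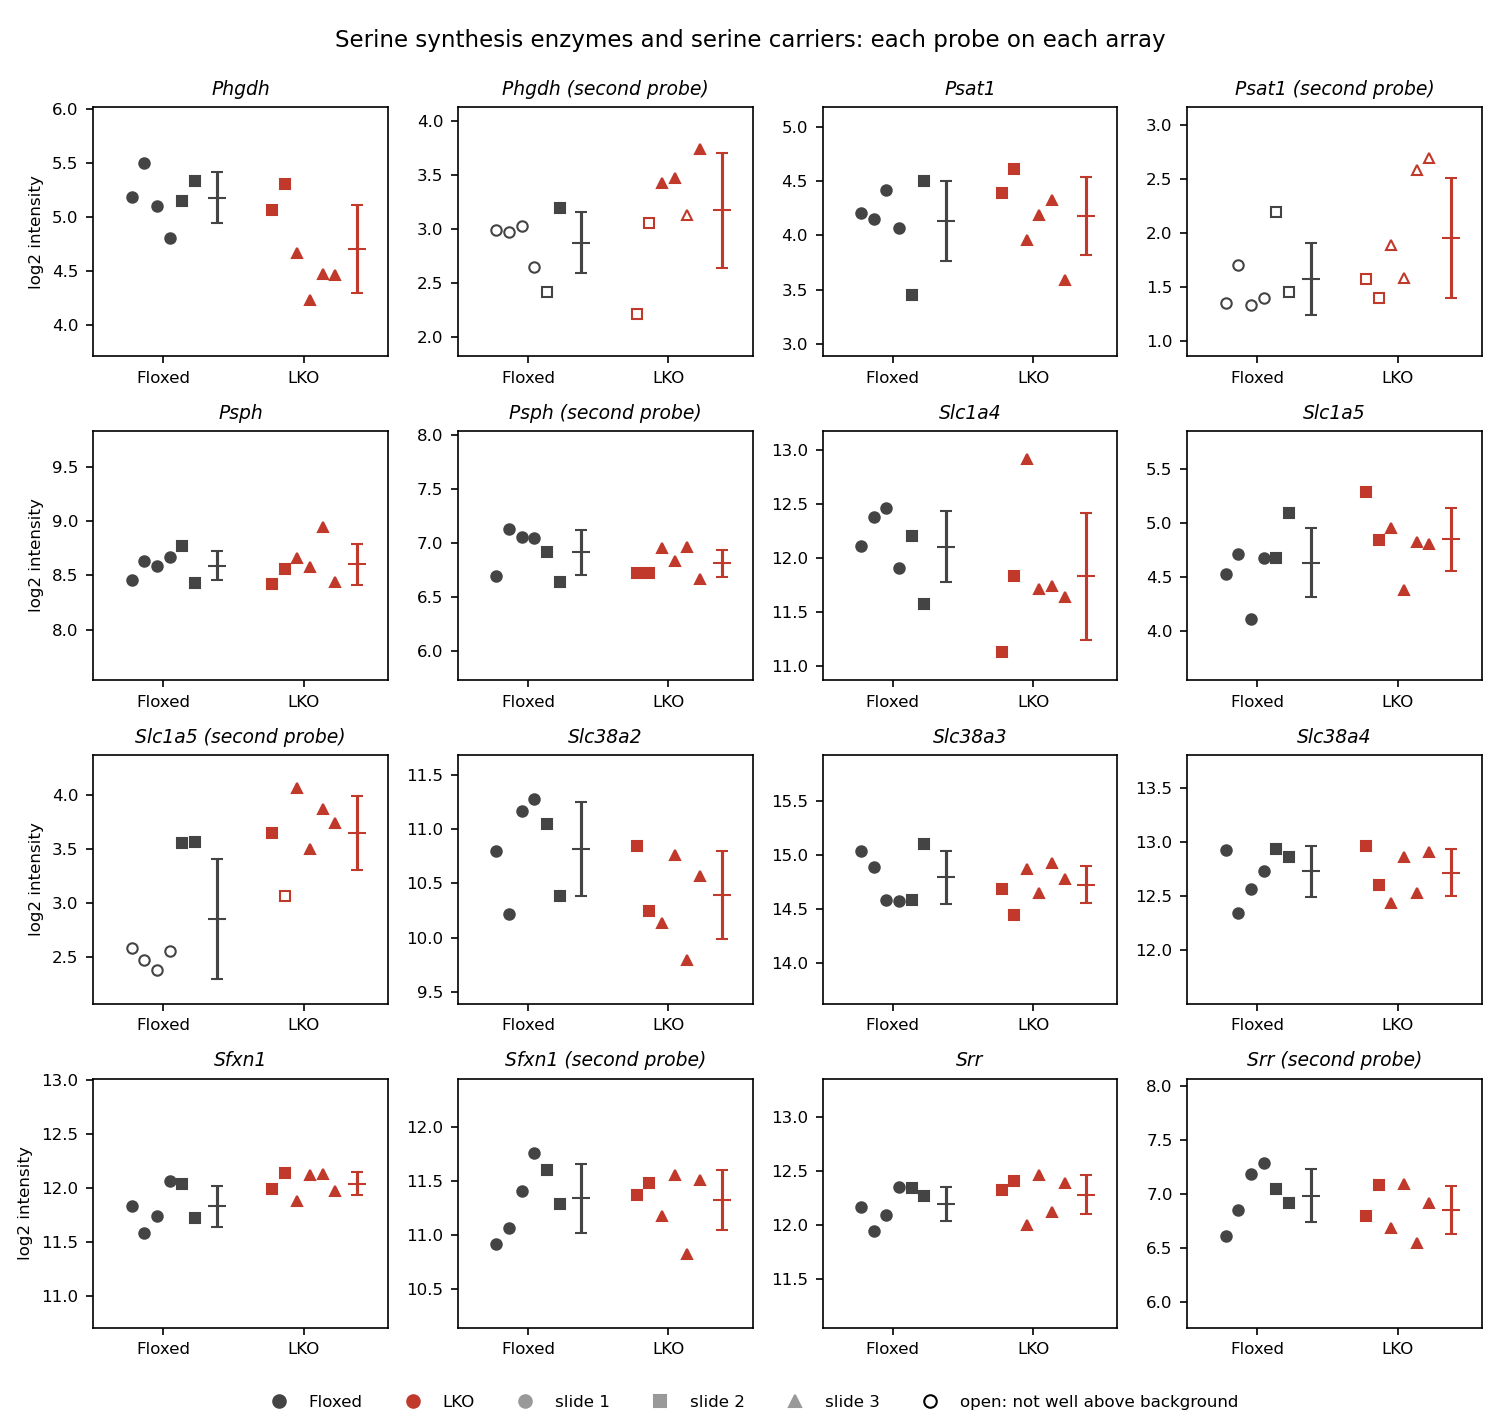
Log2 intensity of each of the 16 probes on each of the 12 arrays, for Floxed (grey) and LKO (red) mice, with slide 1 as circles, slide 2 as squares and slide 3 as triangles. Open symbols are spots not well above background, the bars give mean and SD (n = 6), and each panel spans the same range of log2 units around its own values. The ranges of the genotypes overlap in every panel, as for all but 69 of the 20403 probes tested. The LKO arrays of slide 2 lie within the Floxed range for the first Phgdh probe.

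The 100 bases before the RefSeq start sites of the genes with a called probe, Phgdh and Sfxn1, and of Slc38a2, whose 6 LKO values all lay below the Floxed median, are shown with the stretch of Slc1a4 that holds the only motif found among the member promoters, which runs 4 bases past the start. The sequences and positions are those of RefSeq on GRCm38.p6, and capitals mark the motif. They were taken from chr3:98339970-98340069 (minus strand) for Phgdh, chr13:54071745-54071844 (plus strand) for Sfxn1, chr15:96699729-96699828 (minus strand) for Slc38a2 and chr11:20332710-20332813 (minus strand) for Slc1a4. The Sfxn1 stretch lies inside the gene's span, which begins at chr13:54071656, as its window was set on a later start.
Phgdh: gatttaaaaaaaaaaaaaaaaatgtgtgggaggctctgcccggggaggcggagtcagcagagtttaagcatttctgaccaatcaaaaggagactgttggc
Sfxn1: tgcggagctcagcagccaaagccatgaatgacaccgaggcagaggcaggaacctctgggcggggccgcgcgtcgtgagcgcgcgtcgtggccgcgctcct
Slc38a2: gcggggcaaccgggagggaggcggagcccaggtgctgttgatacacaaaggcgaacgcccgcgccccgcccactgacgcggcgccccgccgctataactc
Slc1a4: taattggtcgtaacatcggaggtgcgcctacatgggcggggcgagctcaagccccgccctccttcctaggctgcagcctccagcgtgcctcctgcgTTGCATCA

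The Phgdh stretch was 44.0% G and C, against 70.0% for Sfxn1 and 72.0% for Slc38a2. Of the 10 genes, 8 had promoter windows in the table used, 11 windows of 300 bases in all, and Slc1a5 and Slc38a3 had none. The windows were searched on both strands for the C/EBP-Atf response element TTGCATCA, the cAMP response element TGACGTCA and the E box CACGTG. Only the response element in Slc1a4 was found. Over the 32851 promoter windows of the table, 0.895% held the C/EBP-Atf response element, 1.79% the cAMP response element and 7.15% the E box. A match is a description of the letters in the window.

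Phgdh, the deleted gene, lies at chr3:98313171-98339969 on GRCm38.p6 and had a pair of probes. The brighter probe, A_55_P2046262, read from 4.81 to 5.50 in Floxed mice with a median of 5.17, and from 4.23 to 5.30 in LKO mice with a median of 4.57. The 4 LKO mice of slide 3 lay at 4.66, 4.23, 4.47 and 4.46, below every Floxed mouse, whereas LKO 1 and LKO 2 on slide 2 lay at 5.07 and 5.30, inside the Floxed range. The mean was 5.18 ± 0.23 in Floxed and 4.70 ± 0.41 in LKO mice (SD, n = 6 each), a difference of -0.48 (SE 0.18, unadjusted p = 0.0176, adjusted p = 0.442 over all probes tested by limma), or 0.717 times the Floxed level with a 95% interval of 0.551 to 0.934. By an exact permutation test of the mouse labels, two-sided, p was 0.0346.

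The Phgdh difference was not the same in the slides. Within slide 2 it was -0.055, the same value as in the fit that took slide as a fixed block (limma, unadjusted p = 0.801). The LKO mice of slide 3 were 0.69 below the Floxed mice of slide 1 (-0.69, limma, unadjusted p = 0.00179), a comparison in which slide and genotype cannot be told apart. Among LKO mice alone, slide 3 was 0.73 below slide 2 (-0.73), while the Floxed mice of slide 2 were 0.093 above those of slide 1. Scaling to the 75th percentile reduced the difference to -0.34 (limma, unadjusted p = 0.0594), and correcting the local background by normexp or using the uncorrected spot signal to -0.19 and -0.15 (limma, unadjusted p = 0.0188 and 0.0420).

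The second Phgdh probe, A_55_P2143041, stood well above background in only 1 Floxed mouse and 3 LKO mice and was not tested. It read from 2.42 to 3.19 in Floxed mice, with a median of 2.98, and from 2.21 to 3.73 in LKO mice, with a median of 3.28. On this probe LKO 3, LKO 4 and LKO 6 of slide 3 lay above every Floxed mouse, between 3.42 and 3.73. LKO 5 of slide 3, at 3.13, lay below Floxed 6 at 3.19. The probes of Phgdh thus ordered the mice differently, but most readings of the second were not well above background. Where either probe lies in the transcript relative to the removed exons was not analysed here, so neither serves as a check of the genotype labels.

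**Figure D2:**
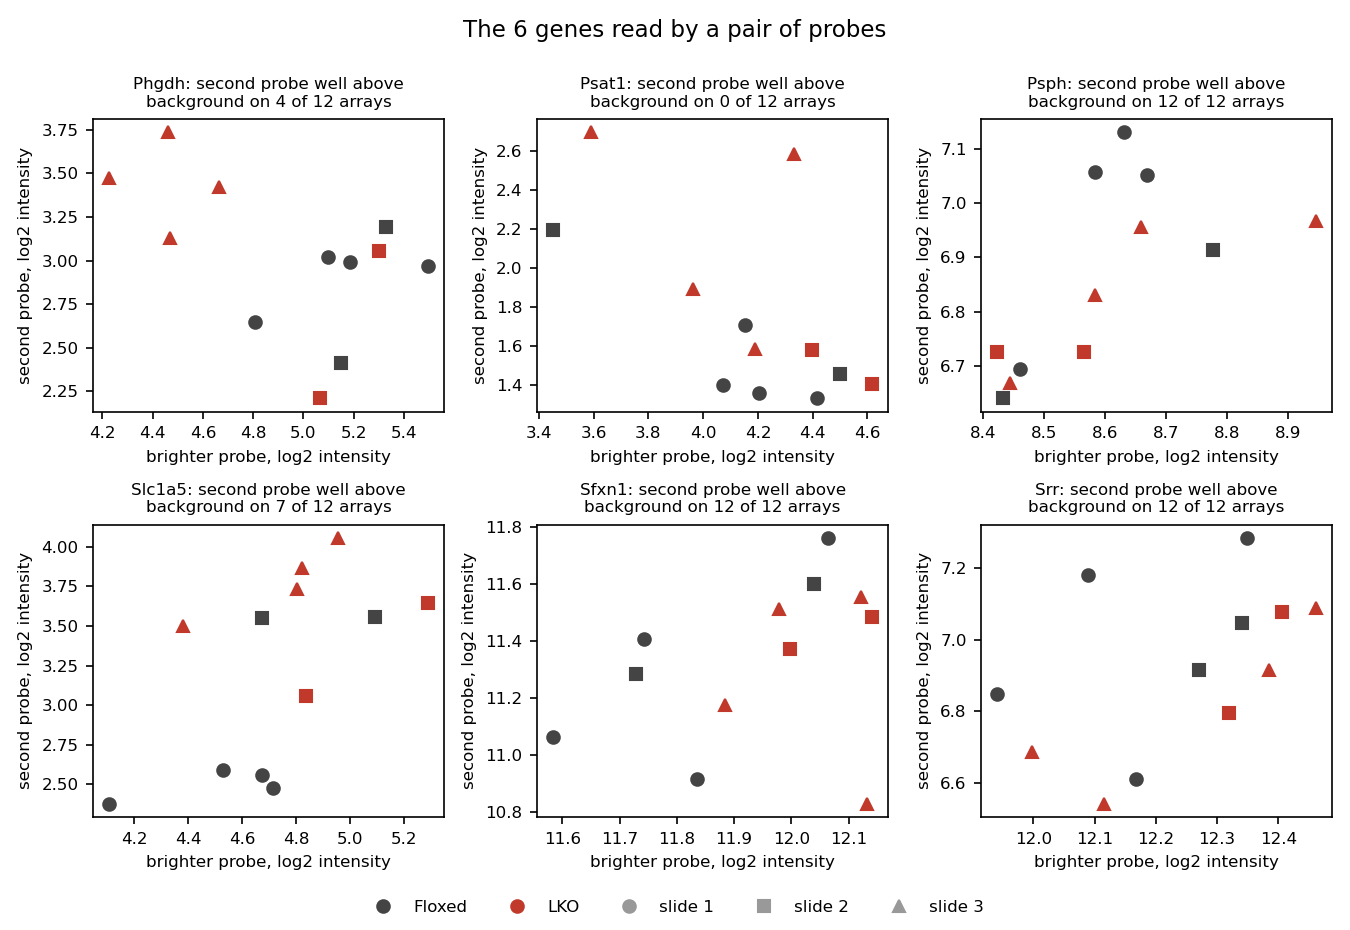
Log2 intensity of the second probe against the brighter probe for the 6 genes with a pair of probes, 1 point per mouse, colored by genotype and shaped by slide. For Phgdh the 4 LKO mice of slide 3 lie at the left, with LKO 3, LKO 4 and LKO 6 highest on the second probe. For Slc1a5 the 4 Floxed mice of slide 1 lie at the bottom, between 2.37 and 2.59 on the second probe.

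No tested probe of Psat1 or Psph, the enzymes after Phgdh, was called. Psat1 lies at chr19:15905123-15925059 (GRCm38.p6, as for all positions here). The tested Psat1 probe read from 3.45 to 4.50 in Floxed mice (median 4.18) and from 3.59 to 4.62 in LKO mice (median 4.26). Each genotype had a mouse clearly below the rest, Floxed 5 at 3.45 and LKO 6 at 3.59, and the other mice overlapped. The difference was 0.048 (SE 0.19, limma, unadjusted p = 0.807), and its 95% interval of 0.774 to 1.38 times the Floxed level leaves room for a change of either sign. Within slide 2 it was 0.53, with the low Floxed 5 on that slide. The second Psat1 probe was well above background on 0 of 12 arrays, with readings from 1.33 to 2.69, and no fold is given.

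Psph, the phosphatase of the last step, had a pair of tested probes. It lies at chr5:129765558-129787443. Its brighter probe read from 8.43 to 8.78 in Floxed mice (median 8.61) and from 8.42 to 8.95 in LKO mice (median 8.57). The difference of 0.011 (SE 0.099, limma, unadjusted p = 0.912) had a 95% interval of 0.869 to 1.17 times the Floxed level, the narrowest of the 3 enzymes. The second Psph probe read from 6.64 to 7.13 in Floxed mice (median 6.98) and from 6.67 to 6.97 in LKO mice (median 6.78). All 6 LKO mice lay below the Floxed median on this probe but inside the Floxed range, and the difference of -0.10 (SE 0.10, limma, unadjusted p = 0.334) did not pass the test.

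**Figure D3:**
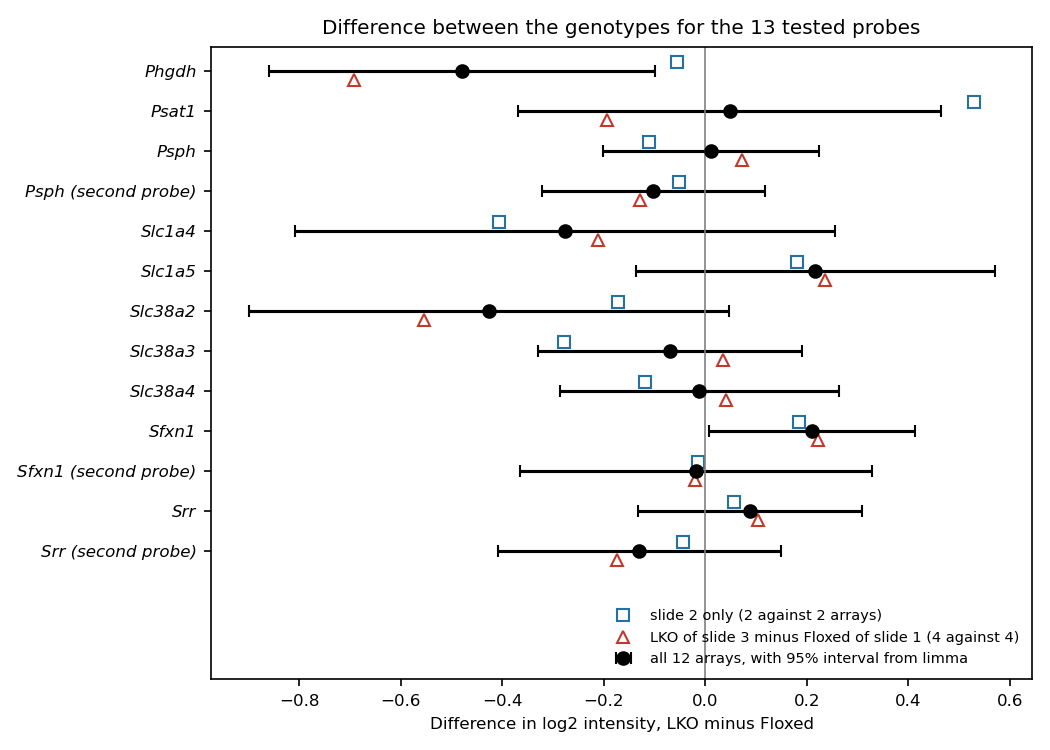
Difference in log2 intensity, LKO minus Floxed, for the 13 tested probes: black points are all 12 arrays with the 95% interval from limma, blue squares slide 2 alone, and red triangles the LKO mice of slide 3 minus the Floxed mice of slide 1. The interval excludes 0 for the first probes of Phgdh and Sfxn1, and the Phgdh square lies at -0.055 beside a triangle at -0.69.

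Slc1a4 and Slc1a5 are sodium-coupled exchangers that carry serine together with alanine, cysteine and, for Slc1a5, glutamine. They lie at chr11:20302180-20332713 and chr7:16781334-16798274. Slc1a4 read from 11.57 to 12.47 in Floxed mice (median 12.16) and from 11.13 to 12.92 in LKO mice (median 11.73). In LKO mice, 5 of 6 lay below the Floxed median, and LKO 3, at 12.92, was the highest of all 12 mice. The difference was -0.28 (SE 0.25, limma, unadjusted p = 0.282), with a 95% interval of 0.571 to 1.19 times the Floxed level. Without LKO 3 the difference was -0.49 and passed the threshold (limma, unadjusted p = 0.0134), whereas without LKO 1 it was -0.14 (limma, unadjusted p = 0.569). The spread of Slc1a4 within a genotype was wide, with a pooled SD of 0.48 against a median of 0.22 over all probes tested.

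The tested Slc1a5 probe read from 4.11 to 5.09 in Floxed mice (median 4.67) and from 4.38 to 5.29 in LKO mice (median 4.83). In LKO mice, 5 of 6 lay above the Floxed median, and the difference of 0.22 (SE 0.16, limma, unadjusted p = 0.208) did not pass the test. Scaling to the 75th percentile gave 0.36, which passed (limma, unadjusted p = 0.0478), whereas normexp and the uncorrected spot signal gave 0.039 and 0.029 (limma, unadjusted p = 0.577 and 0.650), and leaving out Floxed 3 gave 0.11. The second Slc1a5 probe was left out by the filter, as its signal was well above background in 2 Floxed mice and 5 LKO mice only.

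On this second probe the 4 Floxed mice of slide 1 read 2.59, 2.47, 2.37 and 2.56, and none of these readings was well above background. Floxed 5 and Floxed 6 on slide 2 read 3.55 and 3.56, and the LKO mice ran from 3.06 to 4.06 on slides 2 and 3. All 6 LKO mice lay above the Floxed median of 2.57, but they overlapped with the Floxed mice of slide 2. All 4 readings of slide 1, and that of LKO 2, were not well above background, so this probe was not in the main fit. Its difference with looser filters is given among the alternatives.

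Slc38a2, Slc38a3 and Slc38a4 belong to the sodium-coupled neutral amino acid transporters, among which Slc38a2 is widely expressed and induced when amino acids are scarce, and Slc38a3 and Slc38a4 are abundant in liver. Slc38a2 and Slc38a4 lie on the same chromosome, at chr15:96687392-96699728 and chr15:96994816-97055956, and Slc38a3 at chr9:107651154-107668968. Slc38a2 read from 10.22 to 11.28 in Floxed mice (median 10.92) and from 9.79 to 10.85 in LKO mice (median 10.40). All 6 LKO mice lay below the Floxed median, and the 3 lowest Floxed mice, at 10.22, 10.38 and 10.80, lay among them. The difference was -0.43 (SE 0.22, limma, unadjusted p = 0.0736, adjusted p = 0.658), or 0.744 times the Floxed level with a 95% interval of 0.536 to 1.03. It was -0.17 within slide 2 and -0.55 between the LKO mice of slide 3 and the Floxed mice of slide 1. The call turned on the setting, and the difference passed the threshold with normexp (-0.45, limma, unadjusted p = 0.0437), with the uncorrected spot signal (-0.44, unadjusted p = 0.0453) and with slide as a random block (-0.45, unadjusted p = 0.0407). It also turned on single mice, and passed when Floxed 2 (-0.55), Floxed 6 (-0.51), LKO 1 (-0.52) or LKO 4 (-0.50) was left out.

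Slc38a3 read from 14.57 to 15.10 in Floxed mice (median 14.73) and from 14.44 to 14.92 in LKO mice (median 14.73). The medians were equal to the second decimal and the mice were mixed, with 3 LKO mice on either side of the Floxed median. The difference of -0.069 (SE 0.12, limma, unadjusted p = 0.576) had a 95% interval of 0.796 to 1.14 times the Floxed level. Slc38a4 read from 12.35 to 12.94 in Floxed mice (median 12.80) and from 12.44 to 12.97 in LKO mice (median 12.73). Here too 3 LKO mice lay on either side of the Floxed median, and the difference was -0.011 (SE 0.13, limma, unadjusted p = 0.929), with a 95% interval of 0.820 to 1.20 times the Floxed level.

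Sfxn1, the carrier of serine into mitochondria, had a pair of probes that differed in the test. The gene lies at chr13:54071656-54108346. The brighter probe, A_52_P113700, read from 11.58 to 12.06 in Floxed mice (median 11.79) and from 11.88 to 12.14 in LKO mice (median 12.06). All 6 LKO mice lay above the Floxed median, and Floxed 4 and Floxed 5, at 12.06 and 12.04, lay among them. The mean was 11.83 ± 0.19 in Floxed and 12.04 ± 0.11 in LKO mice (SD, n = 6 each). The difference was 0.21 (SE 0.094, limma, unadjusted p = 0.0437, adjusted p = 0.567, exact permutation p = 0.0390), or 1.16 times the Floxed level with a 95% interval of 1.005 to 1.33. Its size varied little with slide, at 0.19 within slide 2 and 0.22 between slides 3 and 1. The call was lost with slide as a fixed block (0.19, limma, unadjusted p = 0.312) and in 9 of 12 fits that left out a mouse. Over these 12 fits the difference ran from 0.16 without Floxed 2 (limma, unadjusted p = 0.0981) to 0.26 without Floxed 4.

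The second Sfxn1 probe, A_51_P418526, read from 10.92 to 11.76 in Floxed mice (median 11.34) and from 10.83 to 11.55 in LKO mice (median 11.43). The mice were mixed on this probe, and LKO 5 was the lowest of all 12. The difference was -0.018 (SE 0.16, limma, unadjusted p = 0.914), with a 95% interval of 0.777 to 1.26 times the Floxed level, which includes the 1.16 of the brighter probe.

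Srr, at chr11:74904027-74927533, encodes the racemase that makes D-serine and also breaks serine down. Its brighter probe read from 11.94 to 12.35 in Floxed mice (median 12.22) and from 12.00 to 12.46 in LKO mice (median 12.35). The genotypes overlapped over most of their range, and the difference of 0.088 (SE 0.10, limma, unadjusted p = 0.405) did not pass the test. The second Srr probe read from 6.61 to 7.28 in Floxed mice (median 6.98) and from 6.54 to 7.09 in LKO mice (median 6.86), a difference of -0.13 (SE 0.13, limma, unadjusted p = 0.332). The probes thus differed in sign, and both intervals, 0.912 to 1.24 and 0.753 to 1.11 times the Floxed level, included no change.

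The 10 genes were also compared with each other over the 12 mice, as deviations from the genotype mean on the brightest tested probe of each gene. Of the 45 pairs, 6 had an unadjusted p below 0.05 in a permutation test of Pearson's r with 100000 resamples, and none did after Benjamini-Hochberg adjustment over the pairs. The pair with the smallest p was Slc38a4 and Srr (r = 0.77, permutation p = 0.00649, adjusted p = 0.205, Spearman's rho = 0.57, permutation p = 0.0695), at r = 0.52 without the 2 mice farthest from the median of Slc38a4 and r = 0.72 within slide and genotype. Phgdh and Psat1, which act in sequence, had r = 0.44 (permutation p = 0.176, adjusted p = 0.569, rho = 0.54, permutation p = 0.0936), at 0.35 without the 2 farthest mice and 0.15 within slide and genotype. Phgdh and Slc38a2 had r = -0.33 (permutation p = 0.313, adjusted p = 0.670, rho = -0.37, permutation p = 0.244), at -0.22 without the 2 farthest mice and -0.83 within slide and genotype. Within slide and genotype Phgdh was also at -0.78 with Srr, -0.76 with Sfxn1 and -0.66 with Slc38a4. It was at 0.53 with Slc38a3, 0.51 with Slc1a4 and 0.31 with Slc1a5. The values within slide and genotype were not tested.

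The genes whose deviations were most like those of Phgdh over the 12 mice, among 12526 genes with a tested probe, were 1700020L24Rik (r = 0.92), Car9, a carbonic anhydrase at the cell surface (0.91), Gm2694 (0.91), the taste receptor gene Tas2r131 (0.91) and Tango6 (0.90). Within slide and genotype these were 0.88, 0.78, 0.88, 0.72 and 0.89. They are listed because they had the highest r, so the values are a description without a test.

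Other genes around the pathway were described by counts. The list of other carriers for serine and neutral amino acids held 32 genes, 15 of them with a tested probe, and 1 of 20 tested probes was called, against 8.54% over all probes. This was Slc38a6, a relative of the carriers above, higher in LKO mice. Floxed mice read between 4.46 and 5.30 and LKO mice between 5.10 and 5.66, which overlapped. The difference was 0.33 (SE 0.15, limma, unadjusted p = 0.0497, adjusted p = 0.583, exact permutation p = 0.0736). The call held in 3 of 16 other settings and in 4 of 12 fits without a mouse, and under normexp the difference was 0.12 (limma, unadjusted p = 0.0651). The median difference of the list was -0.067, and -0.0076 under scaling to the 75th percentile, under which 2 probes were called higher.

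Enzymes that use serine or supply 3-phosphoglycerate, such as the serine dehydratase Sds, the hydroxymethyltransferases Shmt1 and Shmt2, and Gapdh and Pgk1 of glycolysis, made up a list of 15 genes, 14 of them tested. Gapdh alone had 7 of the 22 tested probes. None of the 22 probes was called in either direction, against 8.54% over all probes. Their differences ran from -0.11 to 0.10, and their median was 0.031 (-0.076 with slide as a fixed block).

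The list for Atf4 and the response to amino acid shortage held 20 genes, 17 of them tested, and 2 of 19 tested probes (10.5%) were called, both lower in LKO mice, against 8.54% called and 4.07% called lower over all probes. Under scaling to the 75th percentile and under normexp, 0 of the 19 were called. With slide as a random block, the replicate block, array weights, or slides 1 and 3 alone, 1 probe was called higher. The differences of the list ran from -1.18 to 1.14, so they lay on both sides of 0. For Asns, the asparagine synthetase, Floxed mice read between 6.03 and 8.07 and LKO mice between 4.64 and 8.21. LKO 1 to 4 lay below every Floxed mouse, whereas LKO 6 was the highest of all 12. The difference was -1.18 (SE 0.54, limma, unadjusted p = 0.0475, adjusted p = 0.580, exact permutation p = 0.0866). It ran from -1.62 without LKO 6 to -0.90 without LKO 1 (limma, unadjusted p = 0.112), and the call held in 3 of 12 fits without a mouse and in 6 of 16 other settings. It was -2.45 within slide 2, -0.54 between slides 3 and 1 (limma, unadjusted p = 0.412), and -0.67 and -0.61 with normexp and the uncorrected spot signal, and of these it was called only within slide 2.

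Mthfd2 is a mitochondrial enzyme of one-carbon metabolism that uses the carbon taken from serine. Its probe read between 4.003 and 4.81 in Floxed mice and between 3.90 and 4.33 in LKO mice. The lowest Floxed mouse was Floxed 6, and Floxed 2, at 4.32, also lay within the LKO range. The difference was -0.34 (SE 0.13, limma, unadjusted p = 0.0214, adjusted p = 0.477, exact permutation p = 0.0368). It was -0.18 both within slide 2 and under scaling to the 75th percentile, where it was not called (limma, unadjusted p = 0.545 and 0.205). The difference of Atf4 itself was -0.073 on one probe and -0.025 on the other (limma, unadjusted p = 0.591 and 0.859), and the median of the list was -0.030.

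**Figure D4:**
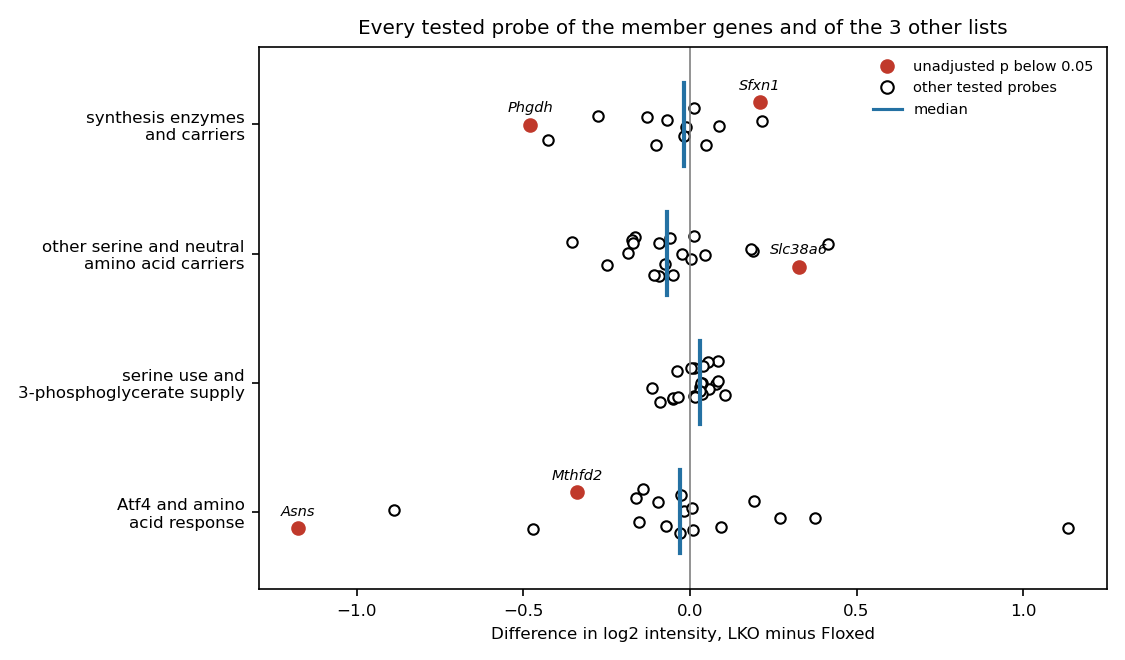
Difference in log2 intensity, LKO minus Floxed, for each tested probe of the 10 genes and of the 3 other lists, with called probes in red and the median of each list as a blue bar. The medians lie between -0.067 and 0.031, and 5 of the 74 probes drawn were called: Phgdh, Asns and Mthfd2 lower, Sfxn1 and Slc38a6 higher.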

How the data were processed

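Liver RNA of 12 mice, 6 Floxed and 6 LKO by the labels' titles, was measured on 12 arrays on 3 slides. The study's methods name a RiboPure kit and the labels TRIzol with a Promega column. The authors deposited the intensity of each spot from Agilent Feature Extraction, version 10.7.1.1 per the file headers and 9.5.1.1 per the submitters' processing notes, with background subtracted and no scaling between arrays, and a table of quantile-normalized intensity on a linear scale, used as an alternative. That table lay within 0.1 on the log2 scale of the values computed here for 99.98% of values.

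Control spots (1377 per array) were left out, log2 of the processed intensity was taken and quantile-normalized, spots marked as outliers (0.298%, none on a member probe) were set as missing, and spots of a probe were averaged. No spot was saturated. A probe was tested where its signal was well above background on each of the 12 arrays, in place of the detection p-values of the study's methods, which were not used here. A RefSeq accession was given for 28389 probes, of which 94.3% were found in the RefSeq table of GRCm38.p6. The array was designed on another build, so gene positions are those of RefSeq. Genotypes were compared with limma 3.58.1 (R 4.3.3) without covariates, called at an unadjusted p below 0.05, with Benjamini-Hochberg adjustment over all probes tested. The number of arrays limits the precision. Single values were compared by exact permutation (smallest possible p 0.00216), and correlations by permutation in Python 3.11.15 with numpy 2.4.6. The code was tested on simulated data.

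Every probe of the 10 genes is reported, with members of the other lists that were called and the 5 genes most like Phgdh. Shmt1, Shmt2, Sds, Gapdh, Pgk1 and Atf4 were named outside this rule. The genes and lists were chosen with earlier results of these data known. Marker lists for cholangiocytes and lymphocytes had 2 of 5 and 3 of 6 genes well above background on all arrays. Of all marker genes, 1 of endothelium was called higher and 1 of cholangiocytes lower. Alternatives covered scaling, background, the deposited table, filters, outlier marks, the choice of probe, slide, replicate number, the methods' t-test, array weights, thresholds and each mouse left out. Slides 1 and 3 alone were added after the data were seen.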

Additional observations from a re-analysis of the deposited data

How the results depend on the processing

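The difference of the brighter Phgdh probe was negative in every alternative run, and that of the second probe was 0.30 and not called in both settings whose filter kept it (limma, unadjusted p = 0.227 and 0.210). The brighter probe lost its unadjusted call under scaling to the 75th percentile (-0.34), with slide as a fixed block and within slide 2 (-0.055 in both), and ran from -0.60 to -0.38 when single mice were left out. Of the 13 tested probes, none was called with slide as a fixed block, within slide 2, at an adjusted p below 0.05 or at a log2 fold change of at least 1 (0 each), 1 was called on slides 1 and 3 alone, and 1 to 3 without single mice. Over all probes, the 1743 calls became 3390 without the filter on dim probes, 386 with slide as a fixed block, 613 within slide 2, 0 at an adjusted p below 0.05 and 90 at a log2 fold change of at least 1, and ran from 1384 to 2289 without single mice. Both member calls under scaling to the 75th percentile were higher in LKO mice, Slc1a5 and Sfxn1. With looser filters, the second Slc1a5 probe was 0.79 higher in LKO mice. It was called in all 3 settings that kept it (limma, unadjusted p = 0.00901, 0.00623 and 0.00645). Its signal was well above background in 2 Floxed and 5 LKO mice, and in none of slide 1. Its mean difference within slide 2, which was not among these fits, was -0.20. The Floxed mice of slide 2 were 1.06 above those of slide 1 on this probe. These calls are therefore no support for a difference between the genotypes. No called value changed sign in these alternatives. For the other probes named, 354 of 423 values under alternatives were counted as unchanged, 26 of these with the opposite sign while not called. For a probe called in the main fit, unchanged meant called with the same sign, whatever its size. For the others it meant not called and within the spread between mice. Calls of probes left out by the main filter were not counted. Of the rest, 9 gained a call, 58 lost one, and 2, both of Psat1 and not called, moved by more than the spread. Asns, still called, went from -1.18 to -2.45 within slide 2. The cause of these changes was not tested.

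The titles number the mice 1 to 6 in both genotypes and give same-numbered mice adjacent animal numbers, and the Floxed mice were littermates, but no label says that a number marks a litter. The deviations of same-numbered mice correlated at -0.24 to 0.34, above 0.1 in 3 of 6 pairs. A mouse matched its own number best in 2 of 6 cases from Floxed mice and 1 of 6 from LKO mice. Same-numbered mice lay on different slides in every pair, so these values cannot decide whether the numbers pair mice. The main fit did not treat them as pairs. With the replicate number as a block, the Phgdh difference stayed -0.48 (limma, unadjusted p = 0.00318), 1783 probes were called over all and 2 among the 13, and the call of Slc38a6 was lost (limma, unadjusted p = 0.0870).

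Slide and genotype overlap only in 4 arrays of slide 2, which limits every difference given here. Phgdh, Psat1 and Slc1a5 each had a second probe that was well above background on only 4, 0 and 7 of the 12 arrays, and its other readings were not well above background. The tested probes of these genes were dim too. They lay at percentiles 8.84, 1.03 and 6.27 of mean intensity among all probes tested. Every call rests on an unadjusted p.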
